A study of Paeonia lutea x Paeonia suffruticosa with 9 samples.

Results

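In floral buds of the tree peony ‘High Noon’, the 2 transcripts matched to the floral repressor AGL15 were at their highest in the vegetative stage, where their means were 3.76 to 6.13 times those of the later stages. Without S1_3, a stage I library that stood apart from the others, the means were 3.06 to 6.36 times those of the later stages. The more abundant transcript, c105115, had an FPKM of 12.6 ± 4.41 (SD, n = 3 libraries) in stage I, with a mean of 10.1 without S1_3. It had 3.29 ± 0.172 in stage II, and 2.56 ± 0.319 in the last stage. The scarcer transcript, c133723, had 0.777 ± 0.0493, 0.207 ± 0.0153 and 0.127 ± 0.112 in the same stages. FPKM is the number of fragments scaled for transcript length and library size. By means alone, most of the fall in both was already present at stage II, although the test of this timing did not pass for either copy in edgeR with all 9 libraries.

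The 2 transcripts are those that the study's list of 26 floral DEGs (differentially expressed genes) pairs with AGL15 of the model plant, and both identifiers were found among the 137758 transcripts of the files. They are i1_LQ_HNbud_c105115/f1p1/1458 and i1_LQ_HNbud_c133723/f1p1/1875, named here by cluster number, with lengths of 1458 and 1875 bp. They are called copies for short, as the sources used do not say if they are alleles, paralogs or isoforms. The study drew up that list from changes between stages in the same 9 libraries, so a difference between stages in the pair is not independent evidence of a change. The samples were floral buds of a cultivar from a cross of Paeonia lutea and Paeonia suffruticosa, with no treatment named. The plants were 5 years old by the labels, while the study's methods give 3 to 5 years. The labels give stages 1 to 3, and the study's microscopy calls stage I vegetative meristem, stage II floral meristem and stage III floral organ. Libraries are named S1_1 to S3_3 by stage and replicate. Adjacent scales and leaves were removed but the bud was otherwise whole, so fewer cells of a type and less RNA per cell cannot be told apart. The sources used do not say if the replicates came from separate plants, and p values then measure only the spread between these libraries.

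AGL15 encodes a transcription factor of the MADS-domain family, proteins that bind DNA as dimers and that include many regulators of flowering and of floral organs. In Arabidopsis it is best known from embryos, where it is abundant, and it also acts together with its relative AGL18 to hold back the change from vegetative to floral growth, upstream of the florigen gene FT. Plants of that species that make too much AGL15 keep their petals and sepals longer. These roles come from Arabidopsis, and the deposited files themselves pair neither transcript with a gene name.

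The libraries held 20065002 to 25195520 counted fragments. As the study reports, every stage I library had a lower RNA integrity number and mapping rate than every later library. How this bears on the stage I levels was not tested. The stage labels were set beside the 11 listed transcripts of PI, SEP3, SEPALLATA2, AP1, FUL, LFY and UFO, which mark floral meristems and organs. Summed over the 11, the FPKM of the stage I libraries was 2.29 to 5.07, that of the stage II libraries 20.8 to 42.8 and that of the stage III libraries 75.8 to 172, and 3 of the 11 had no count in any stage I library. As these 11 were listed for changes between the same stages, their rise is a description and no independent check of the labels. Pairs of replicates had a chi-square of 8.34 or more per transcript, against about 1 for counting error, so no replicate was a copy of another. Library S1_3 stood apart from S1_1 and S1_2, with a chi-square per transcript of 56.8 and 60.0 against them and of 13.4 between S1_1 and S1_2. The main values that rest on S1_3 are therefore given with and without it.

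c105115 was read at 10.7 FPKM in S1_1, 9.42 in S1_2 and 17.6 in S1_3. In stage II it was 3.26, 3.13 and 3.47, and in stage III it was 2.35, 2.93 and 2.41. Every stage I library lay above every library of the later stages, and every stage II library lay above every stage III library. Such separation was not rare among the transcripts tested, by counts scaled for library size. All stage II libraries lay below all stage I libraries for 17.8% of them. Stage III lay below stage I in this way for 19.7%, and below stage II for 12.6%. The share with stage I above both later stages at once was not counted. The counts behind them were 221 to 450 in a stage I library, 82.7 to 96.7 in a stage II library and 55.8 to 71.1 in a stage III library. In stage I the transcript ranked above 81.7% to 88.8% of the transcripts detected in a library by FPKM, and in stage III above 53.4% to 56.9%.

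c133723 was read at 0.80, 0.81 and 0.72 FPKM in stage I. It was at 0.21, 0.19 and 0.22 in stage II, and at 0, 0.17 and 0.21 in stage III. The stage I libraries lay above all others, while stages II and III overlapped. Taken against 1 later stage at a time, stage I lay above stage II for 17.8% of transcripts tested and above stage III for 19.7%. The counts behind these values were 24.6 to 26.1 per library in stage I and 7.07 to 8.36 in stage II. In stage III they were 0 in S3_1, 5.38 in S3_2 and 7.59 in S3_3. For S3_1 the upper end of the exact 95% Poisson interval was 3.69 counts. A set floor of 3 counts there is an FPKM of 0.0952. An exact 95% Poisson interval runs from 17.0 to 38.1 for the 26.1 counts of S1_1 and from 2.81 to 14.4 for the 7.07 counts of S2_3, both from counts rounded to whole numbers, so small changes were not detectable at this depth. Such intervals cover counting error only, since PCR reads are not independent molecules.

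**Figure D1:**
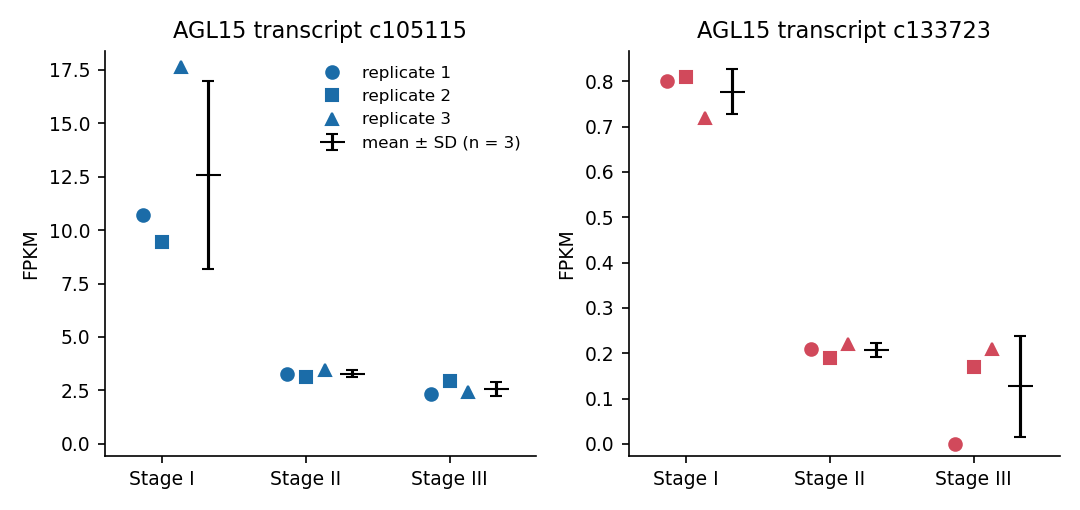
FPKM of the AGL15 transcripts c105115 (left) and c133723 (right) in each library of stages I, II and III, with the mean ± SD of 3 libraries beside each group and separate linear axes. In both panels the 3 stage I libraries lie above all 6 later libraries, S1_3 (triangle) stands at 17.6 for c105115, and c133723 is at 0 in S3_1.

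The comparison of stage I with stage II asks how the repressor stood when the vegetative meristem had become a floral meristem. The mean FPKM of c105115 was 3.83-fold higher in stage I than in stage II, and that of c133723 was 3.76-fold higher. In edgeR's quasi-likelihood test over all transcripts, c105115 fell, with a log2 fold change of -2.08 (SE 0.30, 95% interval -2.80 to -1.35, q = 0.00974). The log2 fold change of c133723 was -2.07 (SE 0.39, 95% interval -3.00 to -1.13, q = 0.0177). Both passed a fold change over 2 with q under 0.05, as did 7.98% of the 64662 transcripts tested in the downward direction. The pass of c133723 is not evidence of a fall, as its stage II counts were under the filter minimum of 10. Admitted through stage I alone, it had to be higher there. The study set q under 0.001 with the DESeq R package, which was not run here. At that threshold neither copy passed in edgeR, where 0 transcripts met it, although 23919 had an unadjusted p under 0.05. DESeq2 gave q = 7.72e-07 for c105115 and q = 0.00239 for c133723, and called 11% of all transcripts lower. In that tool c105115 met q under 0.001, as did 5.17% of transcripts in the downward direction, and c133723 did not. A fall at least as large was fitted for 3.99% of all transcripts in the case of c105115 and for 4.06% in that of c133723, and the median log2 fold change of all transcripts was -0.017. Of all transcripts tested, 17.8% had every stage II library below every stage I library, as both AGL15 transcripts did. The exact two-sided permutation test on FPKM gave p = 0.1 for each, the smallest that 3 against 3 libraries allow.

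The call of c105115 did not hold when any 1 of the stage II libraries was left out. Without S2_1, S2_2 or S2_3 its q value in edgeR was 0.0603, 0.0623 and 0.0590, with log2 fold changes of -1.97, -2.02 and -2.07. Over all transcripts, those fits called 953 of 67070, 718 of 67490 and 846 of 67615 lower, against 5162 of 64662 with all 6 libraries. Without S1_3 it was called, with a smaller log2 fold change of -1.74 and q = 0.00346, as were 11.2% of transcripts in that direction. c133723 was called without S1_3 (q = 0.0206) but not without any of the other 5 libraries, where q lay between 0.0517 and 0.0894, nor with all 9 libraries in 1 fit (q = 0.0737). Without S1_1 or S1_2, 3446 of 67640 and 2441 of 67356 transcripts were called lower, and 6878 of 68174 in the fit of 9 libraries. c133723 entered this test and that of stages I and III only through its stage I counts, as its counts in the later stages were under the minimum of 10, so that a transcript admitted in this way had to be higher in stage I.

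The comparison of stages II and III asks if the level changed further as floral organs formed. For c105115 the mean FPKM was 1.28-fold higher in stage II than in stage III, and the libraries did not overlap, with 0.20 FPKM between the lowest stage II and the highest stage III library. The log2 fold change was -0.36 (95% interval -0.80 to 0.07, SE 0.18, q = 0.376 in edgeR), which did not pass the test and stayed between -0.45 and -0.31 with any library left out. Of the 64971 transcripts tested, 12.6% had all stage III libraries below all stage II libraries, and 0.743% were called lower in stage III. c133723 did not pass the filter on low counts here, with 23 counts summed over stage II and 13 over stage III. Scaled by library size the ratio of stage III to stage II was 0.623, with an exact 95% binomial interval of 0.290 to 1.28 that covers counting error only and includes no change. Its 3 stage III libraries overlapped those of stage II (exact two-sided permutation test, p = 0.3), and S3_1, with no count, was the lowest.

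From stage I to stage III, the whole span from vegetative meristem to floral organ, c105115 fell, with a log2 fold change of -2.43 (95% interval -3.23 to -1.64, SE 0.33, q = 0.0054 in edgeR). Of the 65124 transcripts tested, 10.3% were called lower in stage III, and 3.36% had a fall of at least this size. Its call held without each of the 6 libraries in turn, with log2 fold changes of -2.66 to -2.11 and q of 0.000967 to 0.0384. Without S1_3, 14.4% of transcripts were called lower. Without S1_1 and S1_2, 5744 of 67682 and 5201 of 67693 were. Without S3_1, S3_2 and S3_3, 2900 of 68071, 3081 of 67771 and 2576 of 67638 were. c133723 had a log2 fold change of -2.68 (SE 0.87, 95% interval -4.77 to -0.59, q = 0.0646 in edgeR) and did not pass, although its stage I libraries lay above its stage III libraries, as they did for 19.7% of transcripts. Leaving out S3_1 gave -2.12 (SE 0.52, q = 0.0639 in edgeR), and leaving out S3_3 gave -3.39 (q = 0.121). Its q value was 0.0126 in DESeq2, which called 13% of all transcripts lower, and 0.0316 in edgeR with all 9 libraries in 1 fit, which called 11.6% lower. These values are not evidence of a fall, as c133723 was admitted through stage I alone. The median log2 fold change of all transcripts was 0.021. In edgeR on the 6 libraries, q under 0.001 was met by 4 transcripts, or 0.00614%, and neither AGL15 transcript was among them. c105115 met it in DESeq2 (q = 3.56e-09), as did 7.35% of transcripts in the downward direction. It also met it in edgeR with 9 libraries in 1 fit (q = 0.000512) and in edgeR without S1_3. For these edgeR settings the share of all transcripts at that threshold was not counted.

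**Figure D2:**
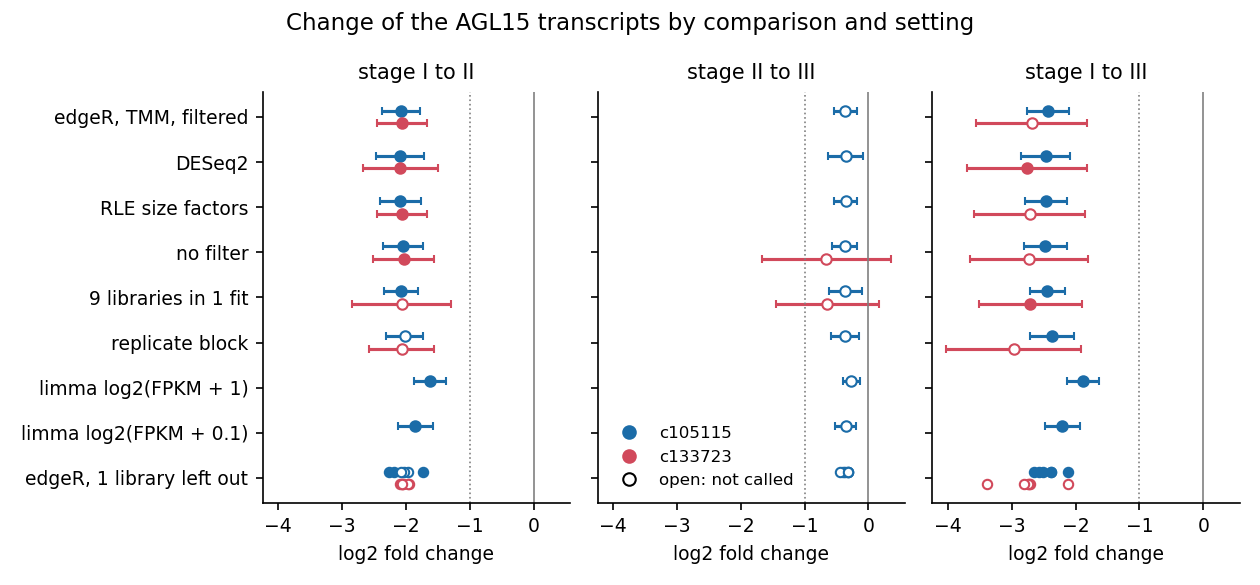
Log2 fold change of c105115 (blue) and c133723 (red) for the 3 comparisons of stages, with bars of 1 SE, in edgeR as used here, under 7 alternative settings, and as points without bars with 1 library left out. Filled symbols passed a fold change over 2 (dotted line at -1) with q under 0.05, and c105115 lies near -2.08, -0.36 and -2.43 in the first row.

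The timing of the fall was tested as the difference of the steps, stage I to II against stage II to III, in 1 fit of all 9 libraries. Of the fall in mean FPKM between stages I and III, 92.8% had taken place by stage II for c105115 and 87.7% for c133723. Without S1_3 the shares were 90.4% and 88.2%. On the log2 scale, which the test uses, the shares were smaller, at 84.4% and 73.0%, or 81.8% and 73.5% without S1_3. For c105115 the first step exceeded the second by a log2 difference of -1.72 (SE 0.47, 95% interval -2.78 to -0.66, unadjusted p = 0.00542, q = 0.0688 in edgeR), which did not pass q under 0.05. Of 68174 transcripts, 5.63% passed in this test, in either direction. Without S1_3 the difference was -1.38 with q = 0.0168, and DESeq2 gave -1.73 with q = 0.0232, so that the call was made in those settings, where 16.5% and 13.4% of all transcripts were called. It was not made without S2_1, S2_2 or S2_3 (q = 0.195 to 0.204), with the replicate number as a block (q = 0.123) or with no filter on low counts (q = 0.104). Without S2_1, S2_2 and S2_3, 900 of 70487, 985 of 70606 and 826 of 70614 transcripts passed. With the block 1000 of 68174 passed, and with no filter 2955 of 97233. For c133723 the difference was -1.43 (SE 1.40, 95% interval -4.61 to 1.76, q = 0.584 in edgeR), an interval too wide to place its fall in either step. Both steps share the stage II libraries.

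The ratio of the copies compares them within a library, so that library size cancels. By FPKM, c105115 was 13.4, 11.6 and 24.5 times as abundant as c133723 in S1_1, S1_2 and S1_3. In stage II the ratio was 15.5, 16.5 and 15.8. In stage III it was 17.2 in S3_2 and 11.5 in S3_3, and has no value in S3_1. The ratio was closest among the stage II libraries, and the range of stage I, which S1_3 sets, contained every ratio of the other stages except the 11.5 of S3_3. The mean log2 ratio of the stage I libraries was 3.97 ± 0.570 (SD, n = 3), that of the stage II libraries 3.99 ± 0.0444 (SD, n = 3) and that of S3_2 and S3_3 3.81 ± 0.415 (SD, n = 2, S3_1 dropped). The differences between stages were smaller than the SD of the more variable stage of each pair, at 0.027 from stage I to II (exact two-sided permutation test, p = 1.0) and -0.18 from stage II to III (exact permutation test, p = 0.7). Between stages I and III the difference was -0.15 (exact permutation test, p = 0.8). The smallest p that these 3 comparisons allow is 0.1, and none of them could therefore pass 0.05 before or after adjustment. Without S1_3 the ratio was higher in stage II than in stage I by 0.35 (exact permutation test, p = 0.1). The difference between stages I and III then turned from -0.15 to 0.17.

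c133723 thus held a small share of the AGL15 counts in every library. The share was 9.07% in S1_1, 10.3% in S1_2 and 5.18% in S1_3, with 95% Wilson confidence intervals of 6.26 to 12.9%, 6.95 to 14.5% and 3.60 to 7.67%. In stage II it was 7.38% to 7.96%. In stage III it was 0% in S3_1, which allows up to 6.42% by the same interval, 7.03% in S3_2 and 10.6% in S3_3. The interval of S3_1 met or overlapped those of 7 of the other 8 libraries, all except S1_2.

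**Figure D3:**
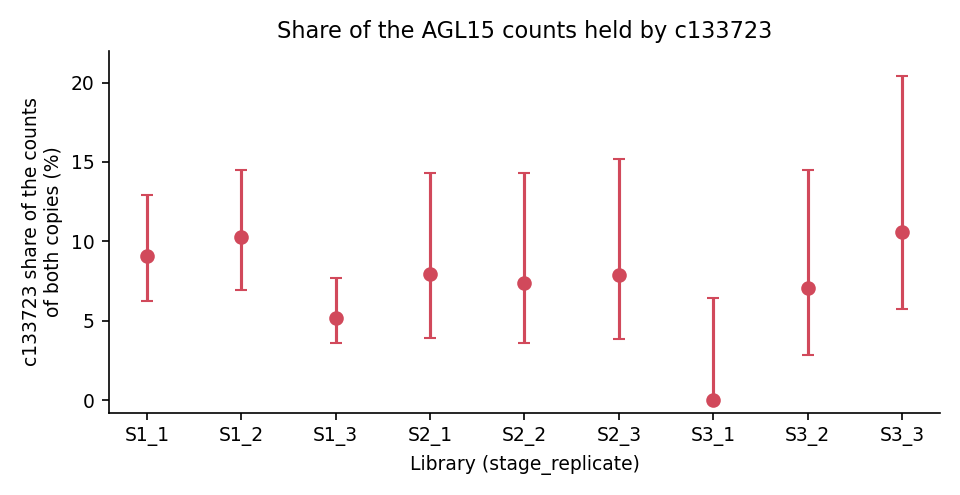
Share of the summed counts of both AGL15 transcripts that was assigned to c133723, in percent, in each of the 9 libraries, with 95% Wilson confidence intervals. S1_3 is at 5.18% and S3_1 at 0%, and the other 7 libraries lie between 7.03% and 10.6%.

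The copies had unlike spreads among the stage I libraries, a difference that was not tested. The coefficient of variation of FPKM was 35.0% for c105115 and 6.35% for c133723. For c105115 it fell to 9.06% without S1_3, which was 1.79 times the mean of S1_1 and S1_2 after TMM normalization. For c133723 the same library was at 0.915 times that mean, so S1_3 was high for one copy and not for the other. Over the 67532 transcripts detected in stage I that passed the filter, the median coefficient of variation on TMM-normalized counts was 37.5%. By the same measure c105115 had 36.4%, above 48.7% of all transcripts, and c133723 had 5.07%, above only 2.15%. Among the 9266 transcripts within 1.5-fold of its stage I level, c105115 was above 65.9%. For c133723 the value is below the 19.9% that counting error alone gives at its mean count, and rests on 3 libraries. In S1_3, 15.5% of all transcripts were raised more against S1_1 and S1_2 than c105115 was. In the later stages c105115 had 6.11% (stage II) and 10.9% (stage III) on TMM-normalized counts, where the medians of all transcripts were 20.6% and 17.1%. By FPKM it had 5.22% and 12.4%, and the 9.06% of stage I without S1_3 lay between these values.

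**Figure D4:**
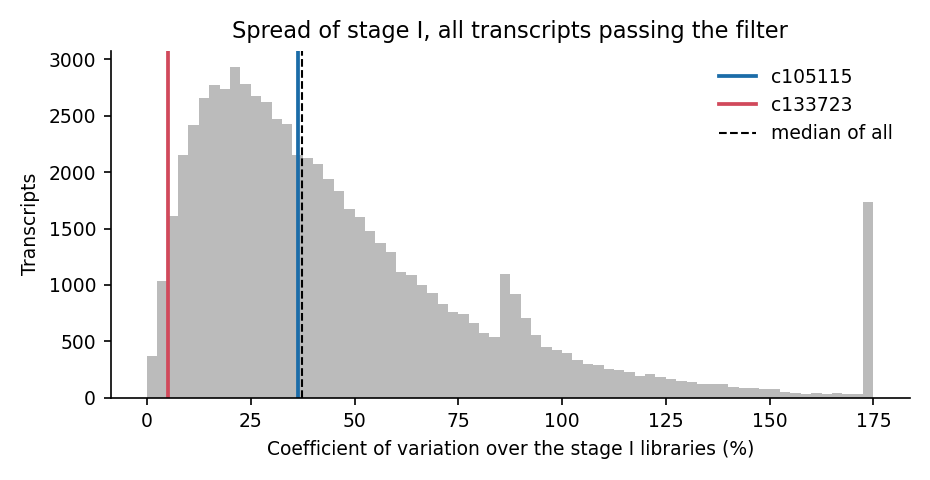
Number of transcripts by coefficient of variation of TMM-normalized counts over the 3 stage I libraries, in bins of 2.5 percentage points, with lines for c105115, c133723 and the median of all. c105115 at 36.4% lies beside the median of 37.5%, and c133723 at 5.07% lies at the low edge.

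The counts of both copies were fractional, which shows that RSEM divided part of their reads with other transcripts. With a tolerance of 0.02, c105115 was whole in 0 of 9 libraries, and c133723 was whole only in S3_1, where it was 0. Had the copies shared reads with each other alone, their counts would add up to whole numbers. The sum was whole in 1 of the 8 libraries in which both were fractional, and no other single transcript gave whole sums with either copy in more than 5 of the 9. At least 1 of the copies thus shared reads with further transcripts, which were not identified. How this division of reads bears on the level of either copy was not tested. An effective length of 1171 to 1215 bp for c105115 and of 1540 to 1625 bp for c133723, from the ratio of counts to FPKM, was shorter than the transcripts themselves.

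Among the 3 listed transcripts of the study's floral repressor class, the third is matched to TEM2 (c49765), a repressor of FT in Arabidopsis. TEM2 was at 5.73, 5.66 and 23.4 FPKM in stage I. It was at 5.72, 4.84 and 4.26 in stage II, and at 10.1, 10.9 and 11.5 in the last stage. Like c105115 it was highest in S1_3, but its stage III libraries stood above S1_1 and S1_2, where those of c105115 stood below them. From stage I to III its log2 fold change was -0.26 (q = 0.779 in edgeR), and without S1_3 it turned to 0.78 (q = 0.00901), still under a fold change of 2. From stage II to III TEM2 rose by 1.13 on the log2 scale (edgeR q = 0.0178, SE 0.14), where c105115 had -0.36. FT (c79621), which carries the flowering signal to the shoot apex, was at 0.55, 1.24 and 0.37 FPKM in stage I and 15.9, 14.6 and 8.48 in stage III. FT rose by 4.06 on the log2 scale (edgeR q = 0.00434, SE 0.50) while c105115 fell. In stage II, where c105115 already lay within 3.13 to 3.47, FT ranged from 1.42 to 12.3.

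Of the 24 listed transcripts other than AGL15, more rose than fell in each comparison. From stage I to III, 23 were tested, of which 14 rose, 2 fell and 7 did not pass, with a median log2 fold change of 2.07 against 0.021 for all transcripts. For all transcripts 11.9% were called higher and 10.3% lower. Without S1_3, 17 rose and 2 fell, where 16.6% of all transcripts were called higher. From stage I to II, 10 of 20 tested rose and 1 fell, at a median of 1.64, where 9.49% of all transcripts were called higher. Between stages II and III, 2 of 24 rose and 0 fell, at a median of 0.90, where 0.734% of all were called higher. The study chose the list on these libraries, so its direction is not independent evidence, and any 2 of these comparisons share the libraries of a stage. Over all 26 listed transcripts, 13 were called from stage I to II, with 9 without S1_1, 7 without S1_2 and 15 without S1_3. Without S2_1, S2_2 and S2_3 there were 3, 4 and 3. Calls over all transcripts moved too, from 11298 of 64662 to 8747 of 67640, 5790 of 67356 and 16977 of 67472 without S1_1, S1_2 and S1_3. Without S2_1, S2_2 and S2_3 they were 2613 of 67070, 2163 of 67490 and 2339 of 67615. The 2 listed transcripts called from stage II to III became 3 without S2_1, 1 without S2_2 and 0 without S2_3 or any stage III library. Over all transcripts, the 960 of 64971 called there became 651 of 66566, 923 of 66924 and 312 of 67700 without S2_1, S2_2 and S2_3. Without S3_1, S3_2 and S3_3 they became 43 of 67654, 64 of 67735 and 340 of 66853. The 8 listed MADS-box transcripts other than AGL15, of SEP3, SEPALLATA2, FUL, PI and AP1, include the regulators that set the identity of sepals, petals and stamens in Arabidopsis. All 8 rose from stage I to III, with a median log2 fold change of 4.89, also with the 2 that had no count in stage I set to the bound that 3 counts allow. For 5 of the 8 every stage I count was under the minimum of 10, so that they were admitted through stage III alone and had to be higher there. AGL15 was the only one of 6 MADS-box genes on the list with negative log2 fold changes there. The filter fixed the direction of those 5 transcripts and of c133723, so this contrast is a description only. The 2 listed transcripts of other genes that fell were those of PDF2 (c2041), a homeodomain factor of the shoot epidermis, and PCFS4 (c3353), a factor of mRNA 3′ end processing. Their log2 fold changes were -1.85 (q = 0.00787 in edgeR) and -1.16 (q = 0.012).

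**Figure D5:**
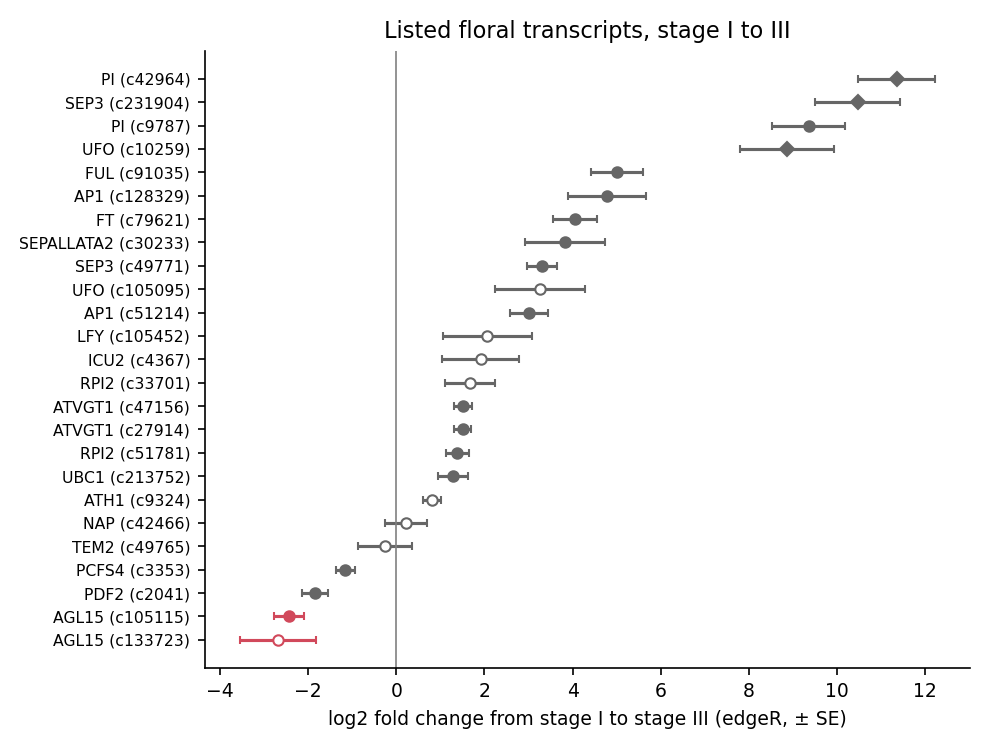
Change from stage I to stage III on the log2 scale, with bars of 1 SE from edgeR, for the 25 listed transcripts tested, AGL15 in red. Filled symbols passed a fold change over 2 with q under 0.05, and diamonds mark transcripts with no count in stage I, whose fitted values depend on a prior count. Both AGL15 transcripts lie at the bottom, at -2.43 and -2.68.

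Likeness of pattern was measured as the root mean square difference over the 9 libraries between log2 CPM profiles, each centred on its own mean, so that 0 means the same relative pattern. The copies differed from each other by 0.618. The profile of c133723 rests on 7.07 to 8.36 counts per stage II library and on 0 in S3_1. How much of the 0.618 is counting error was not tested. Of the 68173 other transcripts, 5.40% lay nearer to c105115 than c133723 did, and 0.733% lay nearer to c133723 than c105115 did, against median differences of 1.23 and 1.36. On the list, the transcript nearest to either copy was that of PDF2, at 0.544 from c105115 and 0.609 from c133723. PDF2 was at 4.59, 5.57 and 3.44 FPKM in stage I, at 1.49, 2.20 and 1.83 in stage II, then at 1.15, 1.09 and 1.79, and so had its lowest stage I value in S1_3, where c105115 had its highest. The farthest from both copies was a transcript of PI (c42964), at 4.23 and 4.39. Among all transcripts the nearest to c105115 was c149995, at 0.160, which had 705, 787 and 1175 FPKM in stage I and 147 to 172 in stage III. The nearest to c133723 was c8866, at 0.230, with 1.54, 1.27 and 1.45 FPKM in stage I. It was at 0.49 to 0.65 in stage II, then at 0.10 in S3_1 against 0.38 and 0.43 in S3_2 and S3_3. The files pair neither identifier with a gene name.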

How the data were processed

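Per the study's methods, the authors filtered paired reads with ng_QC, mapped them with bowtie2 (named Bowtie2 in the submitters' processing notes) to polished long-read transcripts and counted them with RSEM, with no genome. For each library they deposited the expected count of every transcript, fractional and not normalized, and an FPKM value made from it, scaled by the authors for effective length and library size. The versions of these 3 tools and the strandedness of counting are not given in the sources used here. No sequences of the transcripts were used here.

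Expected counts were rounded, filtered with filterByExpr (minimum count 10, minimum total 15) and normalized by TMM. edgeR's quasi-likelihood test was fitted to each pair of stages (6 libraries), and q values are Benjamini-Hochberg adjusted over all transcripts. A call needed a fold change over 2 and q under 0.05, with the study's q under 0.001 beside it. The study used that threshold with the DESeq R package, which was not run here. The SE is the log2 fold change over the square root of the F statistic. The design's log2 ratio of the copies has no value in S3_1, which was dropped there. The tests ran on simulated data first.

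The alternatives tried were a fit of 9 libraries together, RLE size factors, no filter, a replicate block, DESeq2, limma-trend on log2(FPKM + 1) or log2(FPKM + 0.1) where FPKM was at least 1 in 3 libraries, and leaving out each library. The ratio of summed counts for c133723 from stage II to III, the share of the counts in c133723, DESeq2 at q under 0.001 and the alternatives for the listed counts were added after seeing the data. Besides the copies, the transcripts named are TEM2, FT, the listed transcripts nearest to and farthest from each copy, the listed ones that fell, and the nearest of all. The choice of PCFS4 was made after seeing its values. The members, lists and thresholds were chosen with earlier results of these data known. Versions were edgeR 4.0.16, DESeq2 1.42.0 and limma 3.58.1 in R 4.3.3, and pandas 2.3.3, NumPy 2.4.6, SciPy 1.17.1 and Matplotlib 3.10.9 in Python 3.11.15.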

Additional observations from a re-analysis of the deposited data

How the results depend on the processing

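No alternative turned the direction of a fold change of either copy. At q under 0.001 none of the calls in edgeR on 6 libraries remained (log2 fold changes of -2.08 and -2.07 from stage I to II, and -2.43 for c105115 from stage I to III), whereas DESeq2 kept both calls of c105115 at that threshold and lost that of c133723 from stage I to II (-2.09). The replicate numbers gave no sign of pairing the libraries. Deviations of same-numbered libraries correlated at -0.132 to 0.0602, and those of differently numbered ones at -0.102 to 0.135. With 3 libraries per stage this cannot exclude a pairing. With the replicate number as a block, c105115 had -2.02 (q = 0.0517) and c133723 -2.07 (q = 0.0855) from stage I to II, where edgeR then called 0 of 64662 transcripts (19926 with an unadjusted p under 0.05) in place of 11298. For c133723, 9 libraries in 1 fit gave -2.07 (q = 0.0737) from stage I to II, -2.71 from stage I to III, and DESeq2 gave -2.76 there. Its step difference was not called in any setting, while that of c105115 was called in DESeq2 (-1.73) and without S1_3 (-1.38). limma could not be fitted for c133723, whose FPKM was under 1.

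With 1 library left out, the log2 fold change of c105115 ranged from -2.26 to -1.74 (stage I to II), -0.45 to -0.31 (II to III) and -2.66 to -2.11 (I to III). For c133723 it ranged from -2.09 to -1.95 and from -3.39 to -2.12 in the comparisons with stage I. The step difference ranged from -1.90 to -1.38 for c105115 and from -1.97 to -0.71 for c133723. The coefficient of variation of stage I ranged from 9.06% to 42.9% and from 0.878% to 8.32%. The log2 ratio of the copies on log2(FPKM + 1) changed by -1.06 from stage I to II and by -1.23 from stage I to III, as an added 1 exceeds every FPKM of c133723.

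Counts of all transcripts called also moved, and at q under 0.001 edgeR called 0, 4 and 4 in the comparisons I to II, II to III and I to III. From stage I to II they were 2163 to 16977 with 1 library left out. From stage II to III edgeR called 960 transcripts, DESeq2 2012, 9 libraries in 1 fit 6, the block 5, and 43 to 923 were called with 1 library left out. From stage I to III edgeR called 14488, 7718 with the block and 5555 to 21019 with 1 library left out. Of the listed transcripts, 13 were called from stage I to II (0 with the block, 3 to 15 with 1 library left out), 2 from stage II to III (5 in DESeq2, 0 with the block or in 1 fit, 0 to 3 with 1 left out) and 17 from stage I to III (12 to 20).

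At 7.07 to 8.36 counts per library in stage II, depth limits every statement on c133723 after stage I.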

Other observations

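Whole sums of counts were also looked for in the other genes that the study's list pairs with more than 1 transcript. The transcripts of PI (c9787 and c42964) added up to whole counts in 9 of 9 libraries, including all 4 in which both were fractional, and those of UFO (c10259 and c105095) in 9 of 9, including all 6 in which both were fractional. PI directs petal and stamen identity in Arabidopsis, and UFO is an F-box partner of LFY. Reads divided only between the 2 transcripts paired with a gene would give such sums. For AP1, ATVGT1 and SEP3 the sum was whole in 0 of 9 libraries, and for AGL15 in 1. For RPI2 it was whole in 8 of 9, with no library in which both transcripts were fractional. The pattern was noticed in these data and is given as a count.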
